A study of Mus musculus with 13 samples.

Results

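The effect of losing Apc in secretory cells was compared between cultured intestinal organoids and stem cells taken from the mouse ileum, gene by gene, in 8 of the 13 RNA-seq libraries of the series. The libraries were chosen by their titles and formed 4 groups of 2. Sec-Cre Apc-null organoids were labelled Atoh1CreERT2, Apc fl/fl and Rosa26tdTomato, and their controls were organoids labelled only as WT, all with a time label of 10 days after induction. Sec-Cre Apc-null intestinal stem cells (ISCs) were labelled Atoh1CreERT2, Apc fl/fl, Lgr5DTR-GFP and Rosa26tdTomato. Their controls carried the same floxed Apc, Lgr5DTR-GFP and Rosa26tdTomato alleles with no Cre named, and both ISC groups came from the ileum 21 days after induction. Mice of all 4 groups were adult and had 2 doses of 1 mg tamoxifen. Atoh1CreERT2 is a tamoxifen-inducible Cre expressed from Atoh1, whose product commits crypt cells to secretory fates, which directs recombination to secretory cells. Organoids, epithelium grown in gel as budding structures that renew themselves, were sequenced whole, whereas ISCs were isolated by flow cytometry. Material, time and control genotype therefore differ together between the settings, and their parts in any difference cannot be told apart. The extraction text names duodenum for every sample, whereas the ISC labels name ileum.

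Apc scaffolds the complex that marks beta-catenin for destruction. When Apc is lost, beta-catenin accumulates, binds TCF/LEF factors and keeps Wnt target genes on, the usual first step of intestinal adenoma formation. In the normal crypt, Wnt signalling maintains Lgr5-positive stem cells and Paneth cells, Notch signalling holds cells back from the secretory fate that Atoh1 drives, and cells that leave the crypt become absorptive enterocytes or secretory cells.

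Gene counts per library were between 11524335 and 45516228. Sec-Cre ISC library 1 stood apart: 57.0% of its reads were unmapped, 10 genes took 51.0% of its counts, and Paneth cell genes took 36.5%, against 2.70% in Sec-Cre ISC library 2 and 2.86% and 3.10% in WT ISCs. Unmapped reads were 35.8% in Sec-Cre ISC library 2 and 13.9% and 5.01% in WT ISCs. Stromal and endothelial markers (20 genes) made up at most 0.00337% of counts in any of the 8 libraries, and immune markers (18 genes) at most 0.00789%. The crypt base markers Lgr5, Olfm4, Ascl2, Smoc2, Axin2 and Slc12a2 were all detected in both ISC groups, together at 0.0397% and 0.181% of counts in Sec-Cre ISCs and 0.536% and 0.575% in WT ISCs. The epithelial marker Epcam had 868 to 2747 CPM in the 8 libraries. Apc itself had 163 and 179 CPM (counts per library size, scaled by TMM) in Sec-Cre organoids, against 143 and 128 CPM in WT organoids, and 101 and 44.5 CPM in Sec-Cre ISCs, against 105 and 116 CPM in WT ISCs. These counts cover the whole gene and do not test whether the floxed part was removed. The TMM factor was 0.375 in Sec-Cre ISC library 1, against 0.949 in Sec-Cre ISC library 2 and up to 1.306 in the others. CPM of Sec-Cre ISC library 1 are therefore scaled up and are not on the scale of its percent of counts.

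In each setting the effect was the log2 fold change of Sec-Cre Apc-null over WT, and the interaction was the organoid effect minus the ISC effect, all from 1 edgeR quasi-likelihood fit of 14368 genes. A gene was called when its Benjamini-Hochberg adjusted p was under 0.05. In organoids 709 genes (4.93%) were higher and 1063 (7.4%) lower. In ISCs 2065 genes (14.4%) were higher and 1831 (12.7%) lower. With each setting fitted alone, organoids had 1989 genes higher and 2132 lower, and ISCs 853 and 483. Which setting had more calls therefore depended on fitting both together. The interaction was positive for 1568 genes (10.9%) and negative for 1970 (13.7%), and 5547 genes had an unadjusted p under 0.05. Counts of list members below are to be read against the percentages given here. The labels do not say that replicates came from separate animals or cultures, so these p-values measure only the spread between samples.

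Few genes moved the same way in both settings. Of the 738 genes called in both, 110 rose in both (0.766% of genes tested), 107 fell in both (0.745%), 92 rose in organoids and fell in ISCs (0.64%), and 429 fell in organoids and rose in ISCs (2.99%). These class sizes were not tested against those that unrelated calls in each setting would give. By themselves they therefore do not show a shared response. The interaction was called for all 521 genes with opposite effects, and for 19 of the shared rises and 21 of the shared falls, where both settings moved one way by different amounts. Across the 14368 genes the effects were nearly unrelated, with Pearson's r of -0.0601 and Spearman's rho of -0.108, given as a description because genes share their libraries. With either Sec-Cre ISC library left out more genes were called than with all 8, so calls that hold there say little about stability. Leaving out either Sec-Cre ISC library in turn, 84 of the 110 shared rises, 94 of the 107 shared falls, 76 of the 92 and 390 of the 429 opposite genes were called alike both times. Far fewer were called alike without each of the 8 libraries in turn: 11 of the 110, 6 of the 107, 9 of the 92 and 107 of the 429.

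**Figure D1:**
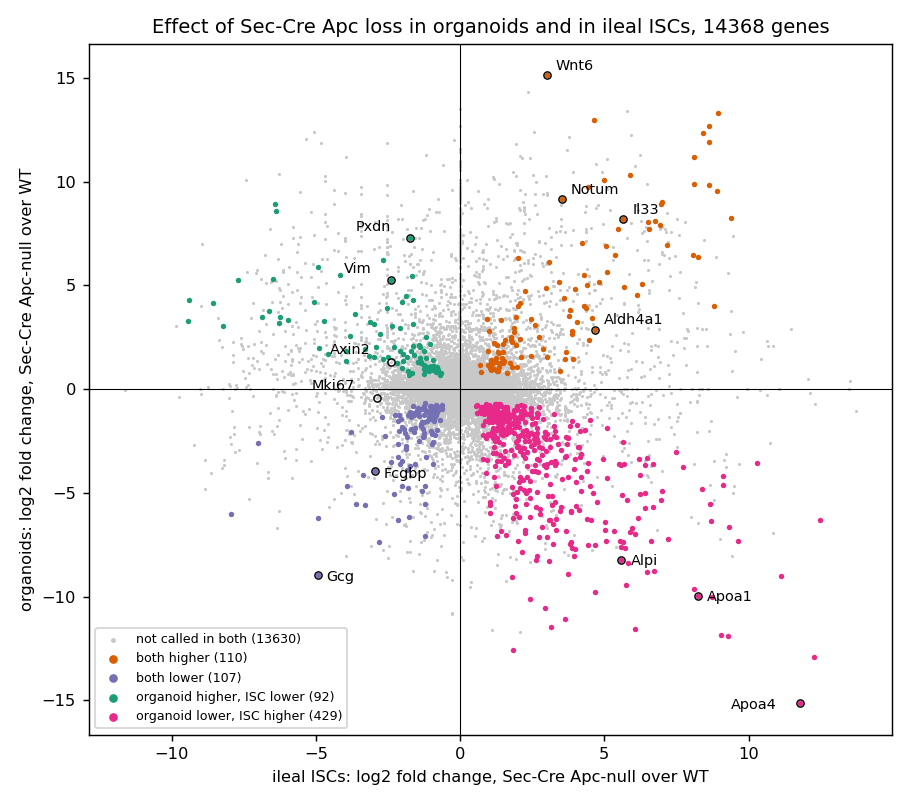
Each point is 1 of 14368 genes, with the log2 fold change of Sec-Cre Apc-null over WT in ileal ISCs on the x axis and in organoids on the y axis. The lower right quadrant, with genes that fell in organoids and rose in ISCs, holds 429 coloured genes, against 92, 107 and 110 in the other coloured classes. Positions of genes without a count in a group, such as Wnt6 and Apoa4, depend on the prior count of the fit.

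Transcript length moved with the ISC effect, which followed it with a Spearman's rho of -0.373 across genes, against 0.0791 for the organoid effect. The median ISC effect was 1.05 in the shortest 10% of transcripts (median 949 bases) and -0.57 in the longest (8167 bases), while the organoid medians were -0.09 and 0.09. Genes higher in Sec-Cre ISCs had a median transcript length of 2155.5 bases and genes lower there 4738 bases, against 3270 bases over all genes tested. With a trend on length removed, 431 genes fell in organoids and rose in ISCs, 108 rose in both, 74 fell in both and 73 rose in organoids and fell in ISCs. These were partly other genes: 359 of the 429, 91 of the 110, 54 of the 107 and 61 of the 92 were called as before. The split of ISC calls then became 1914 higher and 1198 lower, against 2065 and 1831 without it. The part of length in the remaining differences was not tested. Leaving out single libraries also changed how many calls could be made: the interaction had 5885 calls without Sec-Cre ISC library 1 and 6001 without Sec-Cre ISC library 2, and 1478 to 2225 without any one of the other 6 libraries. Organoid and ISC calls, higher and lower, were also more numerous with either Sec-Cre ISC library left out. List counts under these settings are therefore read against more calls over all genes.

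**Figure D2:**
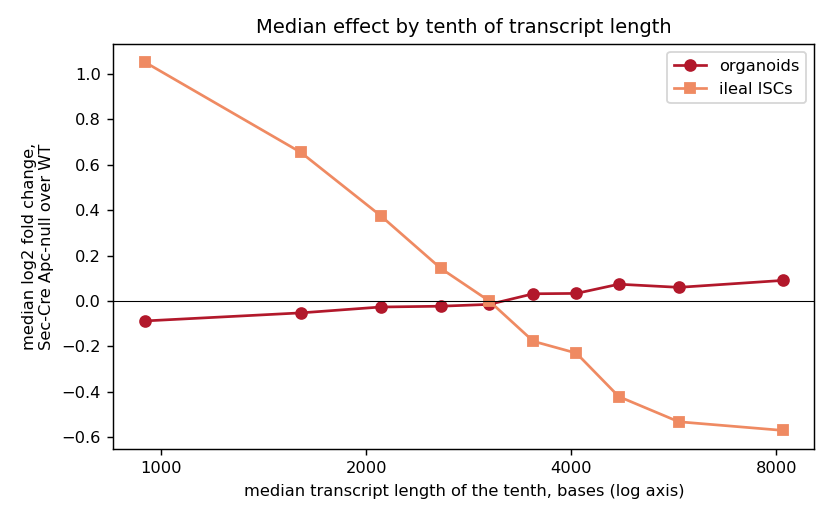
Median log2 fold change of Sec-Cre Apc-null over WT (y axis) in 10 equal groups of genes by transcript length (x axis, median bases, log axis), for organoids and ileal ISCs. The ISC medians run from 1.05 in the shortest 10% of genes to -0.57 in the longest, and the organoid medians stay between -0.09 and 0.09.

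Wnt target genes split between the settings. Of 36 tested members, 18 rose and 1 fell in organoids, 5 rose and 12 fell in ISCs, and 16 had a positive and none a negative interaction. Among all genes tested, 4.93% rose and 7.4% fell in organoids, and 14.4% rose and 12.7% fell in ISCs. Positive interactions were 10.9% and negative ones 13.7%. The ISC rises of the list were thus near the share of all genes. The median log2 effect of the list was 1.23 in organoids and -0.37 in ISCs, against 0.01 and 0.00 over all genes tested. Of the 36, 4 rose in both, 5 rose in organoids and fell in ISCs, and 1, the ion transporter Slc12a2, fell in both. With the length trend removed, 5 members fell in ISCs and 1 was opposite, while 18 still rose in organoids and 12 had a positive interaction. The median ISC effect of the Wnt list was -0.685 without Sec-Cre ISC library 1 and -0.472 without library 2. Of 34 genes of the intestinal stem cell signature, 9 rose and 3 fell in organoids, 1 rose and 10 fell in ISCs, and 11 had a positive and 2 a negative interaction. The median ISC effect of the stem cell signature was -0.555 with all libraries, -0.685 without Sec-Cre ISC library 1 and -0.794 without library 2. Wnt list genes described here other than Axin2, Notum, Prox1, Nkd1, Apcdd1 and Tnfrsf19 were chosen after their values were seen.

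Axin2 (chr11:108920349-108950783, GRCm38), a feedback inhibitor of the pathway and a widely used reporter of Wnt activity, lay above WT in organoids and below WT in ISCs. It had 723 and 691 CPM in Sec-Cre organoids, against 203 and 362 CPM in WT organoids, and 74.2 and 34.9 CPM in Sec-Cre ISCs, against 303 and 267 CPM in WT ISCs. The groups did not overlap in either setting, and Sec-Cre libraries were the higher ones in organoids and the lower ones in ISCs. The log2 effect was 1.32 ± 0.40 (SE, n = 2 against 2) in organoids, which edgeR did not call (adjusted p = 0.0743), and -2.40 ± 0.42 in ISCs (adjusted p = 0.00617). The interaction of 3.72 ± 0.58 was called (edgeR adjusted p = 0.00416) and held without each of the 8 libraries in turn.

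Lgr5, the receptor that marks the sorted cells, did not follow Axin2. It had 109 and 246 CPM in Sec-Cre organoids, against 188 and 208 CPM in WT organoids, and 65.2 and 47.9 CPM in Sec-Cre ISCs, against 89.8 and 57.5 CPM in WT ISCs. The groups overlapped in both settings, and neither effect nor the interaction of 0.23 ± 0.56 was called (edgeR adjusted p = 0.812). Both ISC groups carried Lgr5DTR-GFP and the organoid labels do not name it. Olfm4, a stem cell marker that Notch signalling sustains, had 76.8 and 113 CPM in Sec-Cre organoids, against 1470 and 4276 CPM in WT organoids, and 284 and 1160 CPM in Sec-Cre ISCs, against 2761 and 3380 CPM in WT ISCs. Its fall in organoids was called (log2 effect -4.92 ± 0.83, edgeR adjusted p = 0.0101), but not without Sec-Cre organoid library 1 (0.0849) or 2 (0.0602), and its ISC effect of -2.09 ± 0.73 was not called (0.0704).

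The Wnt genes that rose in both settings were secreted or nuclear components of the pathway that were almost silent in WT. Notum (chr11:120653788-120661175), a secreted enzyme that inactivates Wnt ligands, had 402 and 208 CPM in Sec-Cre organoids, against 0.967 and 0.205 CPM in WT organoids, and 14.1 and 7.27 CPM in Sec-Cre ISCs, against 0.797 and 0.949 CPM in WT ISCs. All Sec-Cre libraries were above all WT libraries, a separation that within each setting was required for naming Notum. The rises were 9.15 ± 0.75 in organoids (edgeR adjusted p = 0.000475) and 3.53 ± 0.64 in ISCs (0.00695), with an interaction of 5.62 ± 0.93 (0.00543). The ISC call ended without WT ISC library 1 (0.0595) or 2 (0.0576), limma voom called neither the ISC effect (0.174) nor the interaction (0.0784), and 33.0% of the 31-base words of Notum transcripts also occur in another gene, so its counts are uncertain.

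The ligand Wnt6 (chr1:74771892-74785322) had 198 and 194 CPM in Sec-Cre organoids, against 0 in both WT organoid libraries, and 6.94 and 2.99 CPM in Sec-Cre ISCs, against 0.740 and 0.380 CPM in WT ISCs. Set against a floor of 3 counts over both WT organoid libraries, it was at least 2613-fold higher in Sec-Cre organoids (edgeR adjusted p = 0.000287). In ISCs its log2 rise was 3.01 ± 0.52 (0.00795), a call that ended without WT ISC library 2 (0.0645), and the interaction was called (0.00133). Another ligand, Wnt10a, had 47.6 and 39.6 CPM in Sec-Cre organoids, against 0 in both WT organoid libraries, at least 579-fold higher (adjusted p = 0.0012). In Sec-Cre ISCs it had 81 counts, against 2 counts in WT ISCs, a ratio of 32.9 (95% counting interval 8.83 to 277), called (0.0122) but not without Sec-Cre ISC library 2 (0.0716) or WT ISC library 2 (0.064), or with limma voom (0.0537). The interaction of Wnt10a (0.0453) ended without 5 of the single libraries (up to 1, without WT ISC library 1), with limma voom (0.0611) and with all 13 libraries (0.0646). Lef1, a factor through which beta-catenin acts, had 47.1 and 27.8 CPM in Sec-Cre organoids, against 0.967 and 0.573 CPM in WT organoids, and 12.7 and 3.26 CPM in Sec-Cre ISCs, against 0.455 and 0 CPM in WT ISCs. Its rises of 5.62 ± 1.05 and 5.10 ± 1.14 were called (edgeR adjusted p = 0.0145 and 0.0155) and were of like size. The organoid call ended without Sec-Cre organoid library 1 (0.0861), WT organoid library 1 (0.105) or 2 (0.112), and the ISC call without WT ISC library 2 (0.0659) or with limma voom (0.0846).

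**Figure D3:**
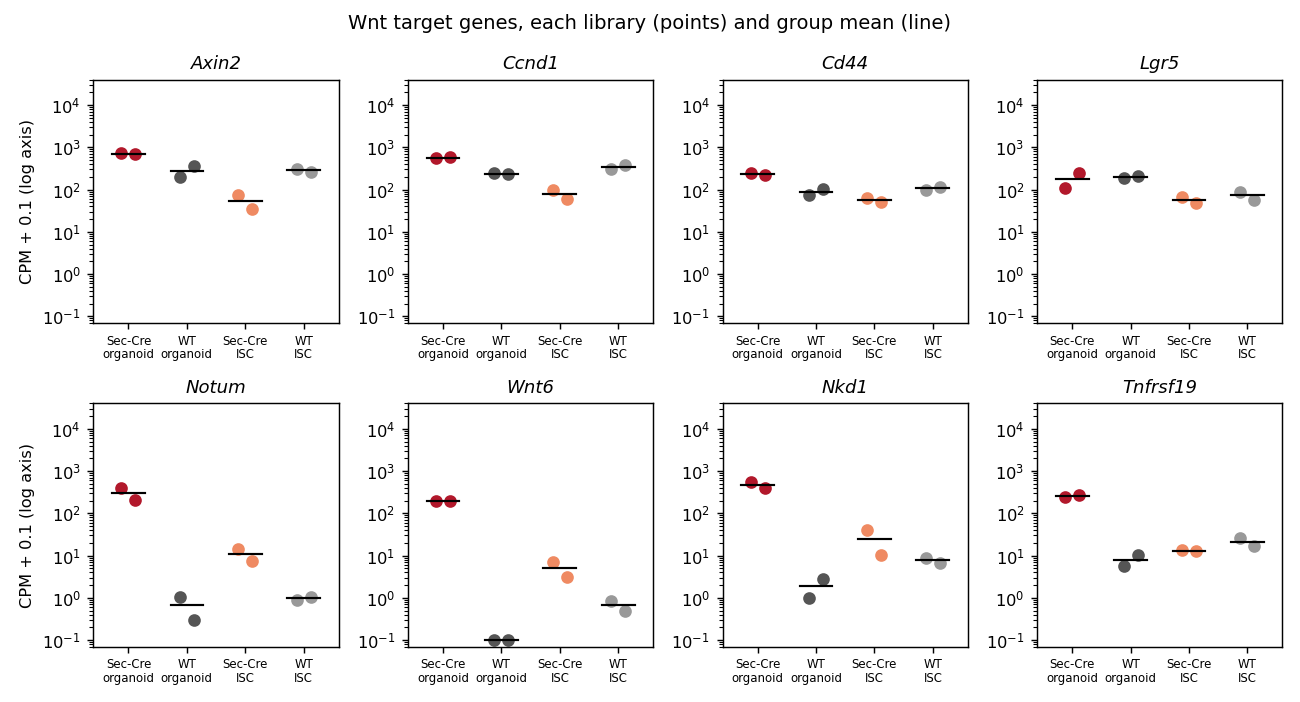
Levels of 8 Wnt target genes in CPM plus 0.1 (y axis, log axis) in each of the 8 libraries, with 2 points and a line at the mean for each of the 4 groups. Axin2, Ccnd1 and Cd44 are higher in Sec-Cre than in WT organoids and lower in Sec-Cre than in WT ISCs, Notum and Wnt6 are higher in Sec-Cre libraries of both settings, and Lgr5 overlaps between groups.

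Other Wnt targets were raised in organoids and lowered in ISCs, or raised in organoids with no call in ISCs. Ccnd1, the cyclin of early cell cycle entry, had 552 and 581 CPM in Sec-Cre organoids, against 250 and 229 CPM in WT organoids, and 95.8 and 59.2 CPM in Sec-Cre ISCs, against 306 and 393 CPM in WT ISCs. Its interaction was 3.42 ± 0.39 (edgeR adjusted p = 0.00134), and 22.3% of its transcript words are shared with another gene. Cd44, the hyaluronan receptor of crypt cells, had 246 and 225 CPM in Sec-Cre organoids, against 72.8 and 105 CPM in WT organoids, and 62.9 and 49.8 CPM in Sec-Cre ISCs, against 96.9 and 118 CPM in WT ISCs. For both genes the order of the groups turned round between the settings without overlap. The interactions of Cd44 (2.35 ± 0.35, adjusted p = 0.0034), of Rnf43, a ubiquitin ligase that removes Wnt receptors (1.83 ± 0.32, 0.00635), and of the transcription factor Ets2 (2.04 ± 0.34, 0.00524) held without each library in turn. The ISC fall of Ccnd1 (-2.18 ± 0.28, 0.00228) also held. The other separate effects of these 4 genes ended when single libraries were left out. In organoids the adjusted p then reached 0.14 for Ccnd1 (without WT organoid library 2), 0.0817 for Cd44 (without WT organoid library 1), 0.171 for Rnf43 (without WT organoid library 1) and 0.223 for Ets2 (without Sec-Cre organoid library 1). In ISCs it reached 0.161 for Cd44 (without WT ISC library 2), 0.203 for Rnf43 and 0.121 for Ets2 (both without WT ISC library 1). With the length trend removed, the ISC effects were -0.38 for Cd44 (0.278), -0.44 for Rnf43 (0.141) and -0.69 for Ets2 (0.0939), none of them called.

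Prox1, a transcription factor switched on in Apc-mutant intestine, had 255 and 174 CPM in Sec-Cre organoids, against 6.06 and 3.77 CPM in WT organoids, and 4.39 and 2.41 CPM in Sec-Cre ISCs, against 10.4 and 9.02 CPM in WT ISCs. Its organoid rise of 5.46 ± 0.41 (edgeR adjusted p = 0.000348) and its interaction of 7.12 ± 0.55 (0.00027) held without each library, but its ISC fall of -1.66 ± 0.39 (0.018) ended without Sec-Cre ISC library 2 (0.107), WT ISC library 1 (0.0903) or 2 (0.0678), with limma voom (0.236) and with the length trend removed (-0.97, 0.0801). Nkd1, an intracellular Wnt inhibitor, had 550 and 391 CPM in Sec-Cre organoids, against 0.902 and 2.74 CPM in WT organoids, and 40.2 and 10.3 CPM in Sec-Cre ISCs, against 8.71 and 6.64 CPM in WT ISCs. Its organoid rise was 7.96 ± 0.85 (0.00147), its ISC effect of 1.66 ± 0.66 was not called (0.101), and the interaction was 6.30 ± 0.99 (0.00434). Tnfrsf19, a receptor expressed in crypt base cells, had 240 and 277 CPM in Sec-Cre organoids, against 5.54 and 10.1 CPM in WT organoids, and 13.2 and 12.8 CPM in Sec-Cre ISCs, against 25.8 and 16.5 CPM in WT ISCs, with an interaction of 5.74 ± 0.49 (0.000369). All 3 genes reached a level in Sec-Cre organoids that no other group approached. Apcdd1, a membrane inhibitor of Wnt, had 201 and 160 CPM in Sec-Cre organoids, against 6.70 and 9.09 CPM in WT organoids, and 0 and 1.97 CPM in Sec-Cre ISCs, against 5.75 and 4.13 CPM in WT ISCs. Its interaction of 6.28 ± 0.86 (0.00252) held without each library, and its organoid rise (0.00396) ended without WT organoid library 1 (0.0588).

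Promoters were read for the short core of the TCF/LEF binding site, CTTTGAT or its reverse complement ATCAAAG, in RefSeq windows of 300 bases around the start site (GRCm38.p6). A match describes letters in this window only. The motif was found in 5 of the 77 genes with a window among the shared rises (6.49%) and 3 of 84 among the shared falls (3.57%), against 355 of 11146 among all genes tested (3.18%). It was found in 1 of 75 genes higher in organoids and lower in ISCs (1.33%) and in 10 of 351 genes lower in organoids and higher in ISCs (2.85%), and in 3 of 20 tested Wnt targets with a window (15%). Some promoters that hold the motif are shown, with the motif in capitals. Sp5 and Tnfrsf19 are Wnt targets raised in organoids, Wwtr1 is a shared rise and Atoh1 a shared fall. Ggt1 was lower in organoids and higher in ISCs, and no gene of the other opposite class is shown.

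Sp5 (chr2:70474673-70474972, plus strand): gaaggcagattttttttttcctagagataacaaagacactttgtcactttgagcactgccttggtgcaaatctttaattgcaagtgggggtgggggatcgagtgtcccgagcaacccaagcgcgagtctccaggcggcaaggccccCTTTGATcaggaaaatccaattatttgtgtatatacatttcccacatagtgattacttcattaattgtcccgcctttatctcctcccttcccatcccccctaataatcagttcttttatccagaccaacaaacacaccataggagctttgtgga
Tnfrsf19 (chr14:61037938-61038237, minus strand): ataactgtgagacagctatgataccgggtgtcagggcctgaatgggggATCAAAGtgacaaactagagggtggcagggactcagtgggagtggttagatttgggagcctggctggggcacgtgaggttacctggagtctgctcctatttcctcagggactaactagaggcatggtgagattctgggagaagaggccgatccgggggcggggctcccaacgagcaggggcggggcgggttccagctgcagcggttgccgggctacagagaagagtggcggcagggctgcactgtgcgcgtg
Wwtr1 (chr3:57575861-57576160, minus strand): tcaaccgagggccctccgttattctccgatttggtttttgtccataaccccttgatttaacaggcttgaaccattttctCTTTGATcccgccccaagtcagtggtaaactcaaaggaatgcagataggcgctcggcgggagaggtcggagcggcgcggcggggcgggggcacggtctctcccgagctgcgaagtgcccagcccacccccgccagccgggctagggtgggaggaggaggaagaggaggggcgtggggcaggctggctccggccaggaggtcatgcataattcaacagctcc
Atoh1 (chr6:64728875-64729174, plus strand): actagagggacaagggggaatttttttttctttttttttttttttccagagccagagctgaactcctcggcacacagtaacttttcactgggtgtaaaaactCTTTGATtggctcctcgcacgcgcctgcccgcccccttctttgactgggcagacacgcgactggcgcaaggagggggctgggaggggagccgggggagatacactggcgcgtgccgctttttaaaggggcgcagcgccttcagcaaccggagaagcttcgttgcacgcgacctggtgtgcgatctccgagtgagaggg
Ggt1 (chr10:75568412-75568711, plus strand): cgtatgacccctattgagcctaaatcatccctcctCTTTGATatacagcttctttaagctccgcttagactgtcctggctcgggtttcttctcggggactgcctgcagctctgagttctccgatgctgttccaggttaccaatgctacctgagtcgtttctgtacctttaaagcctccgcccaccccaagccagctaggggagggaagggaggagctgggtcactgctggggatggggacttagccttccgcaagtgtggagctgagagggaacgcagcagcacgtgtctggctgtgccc

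Sp5, a Wnt-responsive transcription factor, had 119 and 124 CPM in Sec-Cre organoids, against 9.47 and 25.3 CPM in WT organoids, and 52.0 and 32.3 CPM in Sec-Cre ISCs, against 13.3 and 19.1 CPM in WT ISCs. It rose in organoids by 2.79 ± 0.48 (edgeR adjusted p = 0.0106), and its ISC effect of 1.37 ± 0.46 (0.0627) and its interaction of 1.43 ± 0.64 (0.144) were not called. Wwtr1, which encodes the YAP partner TAZ, had 37.9 and 37.3 CPM in Sec-Cre organoids, against 0.580 and 1.64 CPM in WT organoids, and 9.95 and 4.51 CPM in Sec-Cre ISCs, against 0.683 and 0 CPM in WT ISCs. Both rises were called (0.0188 and 0.0223), but the organoid call ended without each organoid library in turn (0.0789 to 0.144) and the ISC call without WT ISC library 2 (0.0592).

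The clearest opposite effect was in enterocyte genes, the digestive enzymes, transporters and lipid-handling proteins of absorptive cells. Of 39 tested members, 36 fell and none rose in organoids, 35 rose and none fell in ISCs, and 38 had a negative interaction. Of the 39, 33 were called in opposite directions in both settings, against 2.99% of all genes. The median log2 effect was -5.23 in organoids and 3.53 in ISCs, and the median interaction -9.18, against 0.01, 0.00 and 0.05 over all genes tested. The list took 0.112% and 0.131% of counts in Sec-Cre organoids, against 1.005% and 0.844% in WT organoids, and 2.46% and 3.81% in Sec-Cre ISCs, against 0.563% and 0.530% in WT ISCs. Opposite calls numbered 35 without Sec-Cre ISC library 1, 34 without Sec-Cre ISC library 2 and 33 with the length trend removed. In bulk samples more cells of a type and more RNA per cell cannot be told apart, which holds for every list described here.

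The apolipoprotein genes Apoa1, Apoc3 and Apoa4 lie beside each other on chromosome 9 (chr9:46228580-46230466, chr9:46232933-46235636 and chr9:46240696-46243459) and encode proteins of the lipid particles that enterocytes secrete. Apoa1 had 0.0742 and 0.414 CPM in Sec-Cre organoids, against 250 and 255 CPM in WT organoids, and 17402 and 7563 CPM in Sec-Cre ISCs, against 53.5 and 28.8 CPM in WT ISCs. It was nearly silent in Sec-Cre organoids, and both Sec-Cre ISC libraries were far above all others. The effects were -9.96 ± 0.95 in organoids (edgeR adjusted p = 0.000905) and 8.25 ± 0.85 in ISCs (0.0012), with an interaction of -18.21 ± 1.27 (0.000203). Apoa4 had 0 counts in both Sec-Cre organoid libraries, against 275 and 125 CPM in WT organoids, at least 3412-fold lower (adjusted p = 0.000303). In ISCs it had 3334 and 2731 CPM in Sec-Cre, against 1.02 and 0.712 CPM in WT, a rise of 11.77 ± 0.66 (0.000511). The words of Apoa4 transcripts are shared with another gene for 64.5%, so its counts are uncertain. Apoc3 likewise had no count in Sec-Cre organoids, at least 330-fold lower than the 33.2 and 7.86 CPM of WT organoids (0.012), and 896 and 219 CPM in Sec-Cre ISCs, against 0.512 and 1.57 CPM in WT ISCs (0.00367).

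Brush border and metabolic genes followed the same pattern. Alpi (chr1:87098002-87101606), intestinal alkaline phosphatase, had 0.186 and 0.104 CPM in Sec-Cre organoids, against 50.9 and 37.6 CPM in WT organoids, and 637 and 895 CPM in Sec-Cre ISCs, against 14.1 and 17.8 CPM in WT ISCs. Its interaction was -13.80 ± 0.53 (edgeR adjusted p = 3.51e-05). The peptidase Enpep had 2.15 and 1.66 CPM in Sec-Cre organoids, against 114 and 130 CPM in WT organoids, and 840 and 959 CPM in Sec-Cre ISCs, against 136 and 129 CPM in WT ISCs, with an interaction of -8.77 ± 0.35 (3.51e-05). Creb3l3, a transcription factor of lipid metabolism, had 0.148 and 0.104 CPM in Sec-Cre organoids, against 20.3 and 21.8 CPM in WT organoids, and 563 and 376 CPM in Sec-Cre ISCs, against 0.228 and 0.902 CPM in WT ISCs. In each of these genes the Sec-Cre organoids were lowest of all groups and the Sec-Cre ISCs highest, with no overlap. Alpi and Creb3l3 were named under rules that required no overlap of Sec-Cre and WT within each setting. For them that lack of overlap is no separate result.

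Further genes, of which Rbp2 and Fabp1 belong to the enterocyte list, were also lower in Sec-Cre organoids and higher in Sec-Cre ISCs than in their WT. Rbp2, which carries retinol in enterocytes, had an interaction of -15.05 ± 1.31 (edgeR adjusted p = 0.000387), Ggt1, a peptidase that breaks down glutathione, -13.04 ± 0.75 (8.6e-05), and the cytochrome P450 gene Cyp2d26 -12.66 ± 0.86 (0.000181). Prap1, a secreted protein of the small intestine, reached -14.21 ± 1.34 (0.000557), with 22.4% of its words shared with another gene. Fabp1, a fatty acid carrier, had 1 count in Sec-Cre organoids, against 815 counts in WT organoids, with a ratio of WT to Sec-Cre of 1140 (95% counting interval 204 to 45092), and 5976 and 2343 CPM in Sec-Cre ISCs, against 1.02 and 18.5 CPM in WT ISCs. The organoid call of Fabp1 (0.0238) ended without Sec-Cre organoid library 1 (0.125) or 2 (0.138) or WT organoid library 1 (0.0995). The protease Prss30 and the calcineurin-like Chp2 had no count in Sec-Cre organoids, at least 204-fold and 298-fold lower than in WT organoids (0.00121 and 0.000182), and both rose in ISCs (3.64 ± 0.49 and 3.13 ± 0.23). Cyp2b10, a drug-metabolising P450, rose by 10.30 ± 1.13 in ISCs (0.00135). Its organoid fall of -3.56 ± 0.78 (0.0261) ended without Sec-Cre organoid library 1 (0.143) or 2 (0.164) or WT organoid library 2 (0.131). Guca2b, the peptide uroguanylin and a member of the Paneth list, rose by 5.56 ± 0.86 in ISCs (0.00391), and its organoid fall of -3.68 ± 0.79 (0.0236) ended without each organoid library in turn (0.066 to 0.155).

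**Figure D4:**
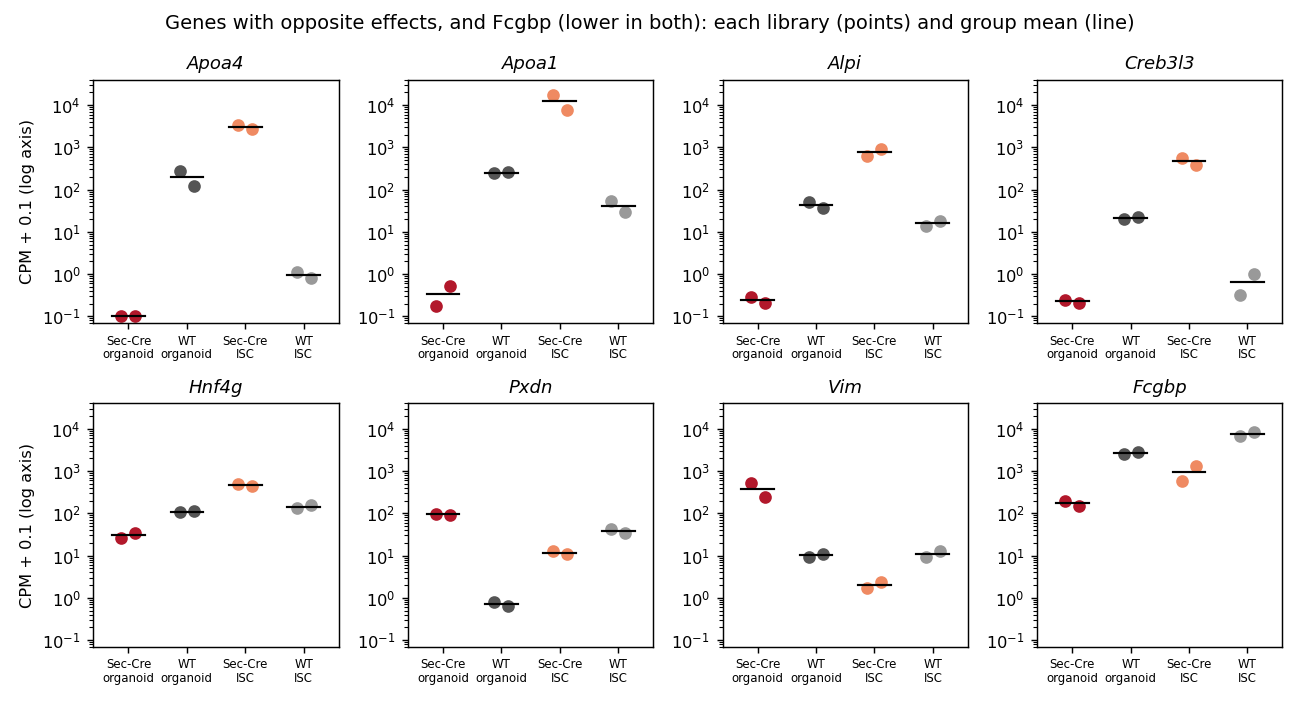
Levels of 8 genes in CPM plus 0.1 (y axis, log axis) in each of the 8 libraries, with 2 points and a line at the mean for each of the 4 groups. Apoa4, Apoa1, Alpi, Creb3l3 and Hnf4g are lowest in Sec-Cre organoids and highest in Sec-Cre ISCs, Pxdn and Vim are highest in Sec-Cre organoids, and Fcgbp is lower in Sec-Cre than in WT in both settings.

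Lists of metabolic genes leaned the same way. Of 29 tested PPAR targets and fatty acid oxidation genes, 15 fell and 1 rose in organoids, 18 rose and 1 fell in ISCs, and 9 were opposite, with a negative interaction for 21. Among all genes tested, 7.4% fell in organoids, 14.4% rose and 12.7% fell in ISCs. Of all genes 2.99% fell in organoids and rose in ISCs, and 13.7% had a negative interaction. Opposite members numbered 16 without Sec-Cre ISC library 1 and 11 without library 2. Ppara, the receptor that drives fatty acid oxidation, had 0.742 and 0.725 CPM in Sec-Cre organoids, against 32.2 and 33.2 CPM in WT organoids, and 93.7 and 66.7 CPM in Sec-Cre ISCs, against 46.2 and 32.6 CPM in WT ISCs. Its interaction was -6.49 ± 0.41 (edgeR adjusted p = 0.00014), and that of Ehhadh, a peroxisomal enzyme of the same pathway, -4.17 ± 0.34 (0.000342), although their separate ISC rises were not called without single libraries (up to 0.182 and 0.22, both without WT ISC library 2). Among 26 genes of glycolysis and the hypoxia response, 12 were lower and 0 higher in organoids, 7 rose and 1 fell in ISCs, and 15 had a negative interaction. Without Sec-Cre ISC library 1, 12 rose in ISCs, and without library 2, 6 rose. Egln3, an oxygen sensor induced by hypoxia, had 43.6 and 27.6 CPM in Sec-Cre organoids, against 374 and 127 CPM in WT organoids, and 26.1 and 70.5 CPM in Sec-Cre ISCs, against 3.07 and 2.75 CPM in WT ISCs. Its interaction was -6.89 ± 0.91 (0.00224), and that of the mitochondrial protein Bnip3, whose words are shared for 57.0%, -4.24 ± 0.57 (0.00239). Of 25 cholesterol synthesis genes, 7 fell in each setting, and 2 of them in both, but 10 fell in both without Sec-Cre ISC library 1 and 14 without library 2. Sc5d, an enzyme late in that pathway, was instead opposite (-0.93 ± 0.22 and 1.15 ± 0.22, interaction -2.08 ± 0.32, 0.00375). The organoid call of Sc5d ended without single libraries (up to 0.242, without Sec-Cre organoid library 1), as did its ISC call (up to 0.0821, without WT ISC library 1).

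Of 25 transcription factors of gut regions and lineages, 7 rose and 4 fell in organoids, and 7 rose and 4 fell in ISCs, with 7 organoid falls with either Sec-Cre ISC library left out. The shares of all genes were 4.93% rises and 7.4% falls in organoids, and 14.4% rises and 12.7% falls in ISCs. Hnf4g had 26.6 and 33.4 CPM in Sec-Cre organoids, against 105 and 112 CPM in WT organoids, and 492 and 444 CPM in Sec-Cre ISCs, against 135 and 154 CPM in WT ISCs, with an interaction of -3.55 ± 0.29 (edgeR adjusted p = 0.00034). Its paralogue Hnf4a, which has a similar role in enterocytes, had 382 and 390 CPM in Sec-Cre organoids, against 1120 and 1192 CPM in WT organoids, and 279 and 551 CPM in Sec-Cre ISCs, against 972 and 1009 CPM in WT ISCs. Hnf4a was thus lower in Sec-Cre in both settings (-1.58 ± 0.34, 0.0238, and -1.25 ± 0.34, 0.0301) and its interaction was not called (0.66). Both Hnf4a calls ended when single libraries were left out, with adjusted p up to 0.185 in organoids (without Sec-Cre organoid library 1) and 0.13 in ISCs (without WT ISC library 2), and the ISC call ended with the length trend removed (0.0694). Klf5, a factor of crypt proliferation, was opposite, with an interaction of -3.09 ± 0.37 (0.00158), but its organoid fall (0.0196) ended without each organoid library in turn (up to 0.21, without Sec-Cre organoid library 2). Hnf4a was chosen after its values were seen.

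Genes that rose in both settings included markers of fetal and regenerating epithelium, a state that the intestine also adopts after injury. Of 33 tested members of that list, 19 rose and 2 fell in organoids, 13 rose and 1 fell in ISCs, and 7 rose in both, against 0.766% of all genes. Without Sec-Cre ISC library 1 the number that rose in both was 10, and without Sec-Cre ISC library 2 it was 7. Clu, a secreted chaperone that marks revival stem cells, had 228 and 362 CPM in Sec-Cre organoids, against 11.4 and 51.1 CPM in WT organoids, and 30.8 and 63.2 CPM in Sec-Cre ISCs, against 2.33 and 3.32 CPM in WT ISCs. The rises were 3.23 ± 0.69 (edgeR adjusted p = 0.024) and 4.06 ± 0.75 (0.00752). The organoid call ended without Sec-Cre organoid library 1 (0.0552) or 2 (0.0958) or WT organoid library 1 (0.0686), and the ISC call without WT ISC library 1 (0.0661) or 2 (0.0567). Anxa1, an annexin of wound repair, had 307 and 313 CPM in Sec-Cre organoids, against 3.54 and 5.20 CPM in WT organoids, and 4.39 and 6.32 CPM in Sec-Cre ISCs, against 0.228 and 1.04 CPM in WT ISCs. Both rises (6.14 ± 0.50, 0.000475, and 3.08 ± 0.52, 0.00571) held without each library. A fit of the ISC libraries alone did not call the ISC rise of Anxa1 (edgeR adjusted p = 0.107). Its interaction of 3.06 ± 0.70 (0.0187) did not hold without each library, and was 1.59 without WT ISC library 2. Il33, an alarm cytokine chosen after its values were seen, had 64.8 and 59.8 CPM in Sec-Cre organoids, against 0.387 and 0.0819 CPM in WT organoids, and 13.2 and 18.6 CPM in Sec-Cre ISCs, against 0.455 and 0.190 CPM in WT ISCs. Its rises of 8.18 ± 0.64 (0.000407) and 5.65 ± 0.59 (0.0012) held without each library.

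Not all of the list was shared. S100a6, a calcium-binding protein, had 763 and 475 CPM in Sec-Cre organoids, against 53.0 and 50.3 CPM in WT organoids, and 40.2 and 51.6 CPM in Sec-Cre ISCs, against 30.3 and 28.3 CPM in WT ISCs, with a rise called in organoids (3.58 ± 0.29, edgeR adjusted p = 0.000446), none called in ISCs (0.65 ± 0.26, 0.105), and an interaction of 2.93 ± 0.38 (0.00205). Krt20, a keratin of differentiated surface cells, was opposite, with -6.21 ± 0.37 in organoids (0.000201) and 1.83 ± 0.30 in ISCs (0.00483). The ISC call of Krt20 ended without WT ISC library 1 (0.0515) or 2 (0.0504), and its interaction of -8.04 ± 0.47 (9.3e-05) held.

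Some BMP target genes also rose in both. Of 19 tested BMP targets and antagonists, 5 rose in organoids and 5 in ISCs, 4 of them in both, with 1 fall in ISCs. Among all genes tested, 4.93% rose in organoids, 14.4% in ISCs and 0.766% in both. Id1 and Id3, inhibitors of basic helix-loop-helix factors that BMP signalling induces, were chosen after their values were seen. Id1 (chr2:152736251-152737410) had 93.1 and 94.5 CPM in Sec-Cre organoids, against 26.4 and 27.1 CPM in WT organoids, and 159 and 199 CPM in Sec-Cre ISCs, against 59.6 and 67.3 CPM in WT ISCs. The rises were 1.81 ± 0.19 (edgeR adjusted p = 0.00143) and 1.50 ± 0.19 (0.00207), the interaction of 0.31 ± 0.26 was not called (0.432), and both held without each library, but with the length trend removed the ISC call ended (0.0559). Id3 had 132 and 123 CPM in Sec-Cre organoids, against 11.7 and 13.5 CPM in WT organoids, and 129 and 246 CPM in Sec-Cre ISCs, against 60.9 and 79.6 CPM in WT ISCs. Its rise of 3.34 ± 0.34 in organoids (0.0012) held, and that of 1.42 ± 0.31 in ISCs (0.0146) ended without WT ISC library 1 (0.113) or 2 (0.0676) and with the length trend removed (0.73, 0.168). Its interaction of 1.91 ± 0.44 (0.0192) ended without 5 of the single libraries (up to 0.0816, without WT organoid library 1). With the length trend removed, 2 BMP genes rose in both.

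Among shared rises that met the limits on level and overlap set for naming, those with the largest smaller effect of both settings were of mixed function. Aldh4a1, a mitochondrial enzyme of proline breakdown, had 30.9 and 22.8 CPM in Sec-Cre organoids, against 4.83 and 2.62 CPM in WT organoids, and 97.6 and 75.5 CPM in Sec-Cre ISCs, against 2.39 and 4.37 CPM in WT ISCs. Both rises (2.86 ± 0.42, edgeR adjusted p = 0.00551, and 4.67 ± 0.45, 0.00103) held without each library, and 31% of its words occur in another gene. Lgals3, a galactose-binding lectin, had 59.6 and 23.9 CPM in Sec-Cre organoids, against 5.74 and 7.29 CPM in WT organoids, and 821 and 603 CPM in Sec-Cre ISCs, against 59.3 and 37.4 CPM in WT ISCs. Its ISC rise of 3.88 ± 0.48 (0.00197) held, while its organoid rise of 2.67 ± 0.47 (0.0115) ended without WT organoid library 1 (0.107) or 2 (0.0714), or with limma voom (0.0592). Aspa, which hydrolyses N-acetylaspartate, rose by 2.39 ± 0.43 in organoids (0.0132) and 4.45 ± 0.43 in ISCs (0.00103), with an interaction of -2.07 ± 0.58 (0.0375). Its organoid call ended without Sec-Cre organoid library 1 (0.0752), WT organoid library 1 (0.0509) or 2 (0.0973), and the interaction without most single libraries (up to 0.155, without WT organoid library 1). Atg9b, an autophagy protein, rose by 3.45 ± 0.53 (0.00679) and 4.57 ± 0.87 (0.00846), but the organoid call ended without WT organoid library 2 (0.0526) and the ISC call with limma voom (0.0601) and in a fit of the ISC libraries alone (0.116). Ecscr, named for endothelial cells, had 44.5 and 41.1 CPM in Sec-Cre organoids, against 2.45 and 1.68 CPM in WT organoids, and 59.9 and 6.41 CPM in Sec-Cre ISCs, against 3.13 and 2.18 CPM in WT ISCs. Its organoid call (0.0249) ended without each organoid library in turn (0.0673 to 0.158) and its ISC call (0.0254) without WT ISC library 1 (0.109) or 2 (0.145), with limma voom (0.0998) and with the length trend removed (0.0571).

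Genes of the secretory lineages were among the shared falls. Atoh1, the gene whose regulatory sequence drives the Cre, had 9.69 and 10.1 CPM in Sec-Cre organoids, against 36.4 and 39.0 CPM in WT organoids, and 44.6 and 30.3 CPM in Sec-Cre ISCs, against 94.3 and 89.0 CPM in WT ISCs. The falls were -1.93 ± 0.24 (edgeR adjusted p = 0.00273) and -1.30 ± 0.24 (0.00706), the interaction was not called (-0.63 ± 0.33, 0.199), and the ISC call ended without WT ISC library 1 (0.0585). Only the Sec-Cre groups carry Atoh1CreERT2 in the labels, and the part of that allele in this fall was not tested. Of 27 goblet cell genes, 12 fell and none rose in organoids, 6 fell and none rose in ISCs, and 3 fell in both, against 0.745% of all genes. The interaction was negative for 11 of the 27 and positive for 1. Fcgbp (chr7:28071236-28120862), a mucus protein, had 198 and 145 CPM in Sec-Cre organoids, against 2545 and 2800 CPM in WT organoids, and 592 and 1325 CPM in Sec-Cre ISCs, against 6695 and 8279 CPM in WT ISCs. Its falls of -3.96 ± 0.51 (0.00313) and -2.96 ± 0.48 (0.00489) held without each library, and the interaction was not called (0.294). A fit of the ISC libraries alone did not call the ISC fall of Fcgbp (edgeR adjusted p = 0.0507). Zg16, a goblet cell lectin, fell in organoids alone, with 0.260 and 0 CPM in Sec-Cre organoids, against 90.5 and 108 CPM in WT organoids, and 1391 and 1128 CPM in Sec-Cre ISCs, against 1049 and 939 CPM in WT ISCs. The interaction of Zg16 was -9.90 ± 0.91 (0.000493). The median ISC effect of the goblet list was -0.0957 with all libraries, -1.07 without Sec-Cre ISC library 1 and 0.523 without library 2. Its direction in ISCs thus depended on which Sec-Cre ISC library was kept. Falls of the list as a whole in ISCs are therefore uncertain.

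Enteroendocrine genes were among them too. Of 32 tested, 14 fell and 1 rose in organoids, 11 fell and 2 rose in ISCs, and 6 fell in both, which became 8 without Sec-Cre ISC library 1 and 9 without library 2. Among all genes tested, 7.4% fell in organoids, 12.7% in ISCs and 0.745% in both. Gcg, the glucagon precursor, had 0.0371 and 0.829 CPM in Sec-Cre organoids, against 250 and 201 CPM in WT organoids, and 7.86 and 1.16 CPM in Sec-Cre ISCs, against 94.2 and 118 CPM in WT ISCs. The falls were -8.98 ± 1.18 (edgeR adjusted p = 0.0035) and -4.95 ± 1.01 (0.0109), the interaction of -4.03 ± 1.38 was not called (0.0706), and the ISC call ended without WT ISC library 2 (0.0549). Chgb, a granin of hormone granules, had 7.09 and 13.3 CPM in Sec-Cre organoids, against 280 and 245 CPM in WT organoids, and 54.6 and 98.0 CPM in Sec-Cre ISCs, against 259 and 357 CPM in WT ISCs. It fell by 4.69 ± 0.44 in organoids and by less in ISCs, with an interaction of -2.68 ± 0.54 (0.0115) that ended without WT ISC library 1 (0.0568), while the ISC call (0.00886) ended without WT ISC library 2 (0.0612). Its relative Chga had an interaction of -4.32 ± 0.44 (0.000804), and its ISC call (0.0215) ended without WT ISC library 1 (0.0538) or 2 (0.145), with limma voom (0.0543) and with all 13 libraries (0.165). Both granins were chosen after their values were seen. Sst, the hormone somatostatin, was not part of this pattern. It had no count in Sec-Cre organoids, against 38.9 and 28.5 CPM in WT organoids, at least 606-fold lower (0.000931), and 23.1 and 45.1 CPM in Sec-Cre ISCs, against 13.3 and 5.98 CPM in WT ISCs. The interaction of Sst was called (0.000604) and held without each library, and its ISC rise (0.0381) ended without Sec-Cre ISC library 2 (0.0892), WT ISC library 1 (0.0555) or 2 (0.177) and WT organoid library 1 (0.0741) or 2 (0.0722), and with the length trend removed (0.89, 0.35). Of 24 tuft cell genes, 3 fell in organoids (10 with either Sec-Cre ISC library left out) and none was called in ISCs.

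Other large shared falls were in genes outside the secretory lists. Cps1, the urea cycle enzyme also made in small intestine, had 53.0 and 102 CPM in Sec-Cre organoids, against 2438 and 2676 CPM in WT organoids, and 385 and 703 CPM in Sec-Cre ISCs, against 2501 and 2860 CPM in WT ISCs. Its falls were -5.04 ± 0.50 (edgeR adjusted p = 0.00109) and -2.30 ± 0.44 (0.00872), and its interaction -2.74 ± 0.61 (0.0168). The ISC call of Cps1 ended without WT ISC library 2 (0.0555), and the interaction without Sec-Cre organoid library 1 (0.0747), WT ISC library 1 (0.0773) or 2 (0.0653), or WT organoid library 1 (0.0526) or 2 (0.054). Gpr128, an adhesion receptor, had 15.8 and 19.8 CPM in Sec-Cre organoids, against 250 and 188 CPM in WT organoids, and 48.8 and 49.5 CPM in Sec-Cre ISCs, against 216 and 197 CPM in WT ISCs. Nr5a2, a nuclear receptor that supports crypt renewal, had 2.86 and 4.84 CPM in Sec-Cre organoids, against 36.6 and 48.7 CPM in WT organoids, and 16.9 and 17.2 CPM in Sec-Cre ISCs, against 73.2 and 65.1 CPM in WT ISCs. The falls of Gpr128 (-3.62 ± 0.24 and -2.07 ± 0.22) and of Nr5a2 (-3.47 ± 0.32 and -2.02 ± 0.30) held without each library in both settings. Their interactions of -1.55 ± 0.31 (0.0109) and -1.45 ± 0.42 (0.0412) did not, with adjusted p up to 0.0756 and 0.166, both without Sec-Cre organoid library 1.

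Cebpa, a differentiation factor, fell by -2.65 ± 0.40 in organoids (edgeR adjusted p = 0.00651) and -2.14 ± 0.40 in ISCs (0.00768), the first of which ended without Sec-Cre organoid library 1 (0.0521). The lipase Lipg fell by -2.25 ± 0.34 (0.00658) and -2.62 ± 0.36 (0.00268), and the adenylyl cyclase Adcy8 by -2.03 ± 0.33 (0.00836) and -2.13 ± 0.33 (0.00418). Their organoid calls ended without Sec-Cre organoid library 1 (0.0557 for Lipg, 0.0731 for Adcy8) or 2 (0.0695 and 0.0772). For Cebpa, Lipg and Adcy8 the interaction was not called, with adjusted p of 0.543, 0.617 and 0.911.

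Genes that rose in organoids and fell in ISCs included matrix, adhesion and cytoskeletal genes. Pxdn (chr12:29937608-30017658), a peroxidase that cross-links basement membrane collagen, had 98.4 and 93.3 CPM in Sec-Cre organoids, against 0.709 and 0.532 CPM in WT organoids, and 12.5 and 10.6 CPM in Sec-Cre ISCs, against 43.6 and 33.5 CPM in WT ISCs. Its rise of 7.28 ± 0.32 (edgeR adjusted p = 8.37e-05), its fall of -1.75 ± 0.24 (0.0029) and its interaction of 9.04 ± 0.40 (4.7e-05) held without each library. Vim, the intermediate filament of mesenchymal cells, had 520 and 240 CPM in Sec-Cre organoids, against 9.15 and 10.9 CPM in WT organoids, and 1.62 and 2.27 CPM in Sec-Cre ISCs, against 9.22 and 12.8 CPM in WT ISCs. The interaction of Vim was 7.64 ± 0.60 (0.000301), and its fall of -2.40 ± 0.43 in ISCs (0.00689) was not called by limma voom (0.49) or in a fit of the ISC libraries alone (0.0554). Vim is a stromal as well as an epithelial gene, and the stromal marker list, of which 11 of 20 genes had no count in Sec-Cre ISCs, took 0.00299% and 0.00199% of counts in Sec-Cre organoids and 0.00337% and 0.00177% in WT organoids. Single members differed within that total: Cdh5, the endothelial cadherin, had 558 counts in Sec-Cre organoids, against 0 in WT organoids, Pdgfra 42 against 0 and Acta2 35 against 0, while Pdgfrb had 12 against 126 and Lyve1 71 against 604. Of 8 tested members, Cdh5 rose and Pdgfrb and Lyve1 fell, and their part in the rise of Vim was not tested. Of 17 tested basement membrane and mesenchymal genes, 11 rose and none fell in organoids, 2 rose and 5 fell in ISCs, and 7 had a positive interaction. Hspg2, the basement membrane proteoglycan perlecan, had 205 and 206 CPM in Sec-Cre organoids, against 76.8 and 63.1 CPM in WT organoids, and 30.5 and 32.6 CPM in Sec-Cre ISCs, against 102 and 128 CPM in WT ISCs, with an interaction of 3.42 ± 0.29 (0.000367).

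Thbs1, a matrix glycoprotein, had 413 and 324 CPM in Sec-Cre organoids, against 17.4 and 41.6 CPM in WT organoids, and 58.3 and 14.8 CPM in Sec-Cre ISCs, against 585 and 305 CPM in WT ISCs. Its effects were of like size and opposite sign, 3.64 ± 0.72 and -3.65 ± 0.73, with an interaction of 7.28 ± 1.03 (edgeR adjusted p = 0.00288). The laminin chain Lamb2 (5.22 ± 0.77, 0.00338), the sulfotransferase Chst11 (6.86 ± 0.59, 0.000382), the urea transporter Slc14a1 (6.42 ± 0.95, 0.00342) and the planar polarity receptor Ptk7 (3.69 ± 0.44, 0.00149) had interactions that, like that of Thbs1, held without each library. Their organoid rises were less steady. They ended without single organoid libraries for Thbs1 (up to 0.14, without WT organoid library 1), Lamb2 (up to 0.243, without WT organoid library 1), Chst11 (up to 0.11, without Sec-Cre organoid library 2), Slc14a1 (up to 0.103, without WT organoid library 1) and Ptk7 (up to 0.104, without WT organoid library 1). The ISC falls ended for Thbs1 without WT ISC library 1 (0.0558) and for Slc14a1 without WT ISC library 1 (0.0957) or 2 (0.0922) or WT organoid library 1 (0.0536) or 2 (0.0537). The ISC falls of Chst11, Lamb2 and Ptk7 held without each library, but limma voom did not call them (0.0752, 0.0918 and 0.0604). A fit of the ISC libraries alone did not call those of Lamb2 (edgeR adjusted p = 0.0782) and Ptk7 (0.053).

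Some targets of the mechanical YAP and TEAD pathway and the heat shock genes Hspa1b and Hspa1a showed the same direction of interaction. Of 27 tested YAP and TEAD genes, 12 rose and 1 fell in organoids, 4 rose and 3 fell in ISCs, and 11 had a positive and 1 a negative interaction. The organoid rises stood against 4.93% of all genes, and the ISC counts were near the 14.4% and 12.7% of all genes. Without Sec-Cre ISC library 1, 8 fell in ISCs and 6 were opposite, against 2 opposite with all libraries, and without library 2, 5 fell and 5 were opposite. Cyr61, a secreted YAP target, had 36.5 and 52.6 CPM in Sec-Cre organoids, against 6.70 and 9.09 CPM in WT organoids, and 31.9 and 44.7 CPM in Sec-Cre ISCs, against 81.8 and 95.5 CPM in WT ISCs. Its interaction was 3.69 ± 0.41 (edgeR adjusted p = 0.00121), and that of Tead2, a DNA-binding partner of YAP, 4.91 ± 0.56 (0.00129). The ISC fall of Cyr61 (0.0197) ended without WT ISC library 1 (0.0755) or 2 (0.117), with limma voom (0.109) and with all 13 libraries (0.0565). The paired heat shock genes Hspa1b and Hspa1a, whose words are shared for 68.1% and 70.1% so that reads cannot be divided between them with confidence, were highest in WT ISCs. They belong to a list of 30 immediate early and dissociation stress genes, of which 5 rose and 1 fell in organoids, 4 rose and 2 fell in ISCs, and 4 had a positive and 3 a negative interaction. Over all genes 4.93% rose and 7.4% fell in organoids, and 14.4% rose and 12.7% fell in ISCs. Interactions were positive for 10.9% and negative for 13.7% of all genes, so the list as a whole did not lean in ISCs or in the interaction. ISC counts became 7 and 4 without Sec-Cre ISC library 1 and 9 and 4 without library 2. Hspa1b had 25.4 and 20.5 CPM in Sec-Cre organoids, against 7.35 and 5.44 CPM in WT organoids, and 21.7 and 50.5 CPM in Sec-Cre ISCs, against 501 and 649 CPM in WT ISCs. The interactions were 5.82 ± 0.58 for Hspa1b (0.00074) and 6.90 ± 0.78 for Hspa1a (0.00122), and the organoid rise of Hspa1b (0.0245) ended without each organoid library in turn (0.0706 to 0.155). Among other large positive interactions, Sox21, a transcription factor of foregut epithelium, had 174 and 158 CPM in Sec-Cre organoids, against 2.77 and 4.50 CPM in WT organoids, and 0.463 and 1.90 CPM in Sec-Cre ISCs, against 6.77 and 2.09 CPM in WT ISCs (7.04 ± 0.89, 0.00192). The sialyltransferase St6gal1 had an interaction of 6.61 ± 0.92 (0.00274), which limma voom did not call (0.111).

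Proliferation and biosynthesis genes fell in ISCs with no call in organoids. Of 42 tested cell cycle genes, none was called in organoids, 21 fell and none rose in ISCs, and 15 had a positive interaction, against 12.7% ISC falls and 10.9% positive interactions of all genes. The median log2 effect was 0.14 in organoids and -1.22 in ISCs. Mki67, the proliferation antigen, had 418 and 474 CPM in Sec-Cre organoids, against 610 and 580 CPM in WT organoids, and 71.0 and 83.3 CPM in Sec-Cre ISCs, against 566 and 586 CPM in WT ISCs. Its ISC fall of -2.90 ± 0.22 (edgeR adjusted p = 0.000665) and its interaction of 2.48 ± 0.30 (0.0015) held without each library. The interaction was 2.17 ± 0.29 (0.00227) for the spindle factor Tpx2. Cell cycle falls in ISCs numbered 24 without Sec-Cre ISC library 1, 37 without Sec-Cre ISC library 2 and 20 with the length trend removed. Without library 1 or 2, positive interactions numbered 27 and 37 and organoid rises 4 and 5.

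Of 39 ribosome biogenesis and Myc target genes, none was called in organoids, 1 rose and 11 fell in ISCs, and 6 had a positive interaction (12 without Sec-Cre ISC library 1 and 17 without library 2), among them Utp20, which processes ribosomal RNA (2.65 ± 0.27, edgeR adjusted p = 0.00082), and Cad, which starts pyrimidine synthesis (2.50 ± 0.33, 0.00211). Of 19 Notch pathway genes, 2 rose and 2 fell in organoids, none rose and 8 fell in ISCs, and 5 had a positive interaction (8 with either Sec-Cre ISC library left out). For both lists the shares of all genes were 4.93% rises and 7.4% falls in organoids, 12.7% falls in ISCs and 10.9% positive interactions. The receptor Notch2 had 82.4 and 69.0 CPM in Sec-Cre organoids, against 42.0 and 33.3 CPM in WT organoids, and 13.2 and 8.75 CPM in Sec-Cre ISCs, against 46.3 and 40.9 CPM in WT ISCs (interaction 3.04 ± 0.38, 0.00181). The ligand Jag1 had an interaction of 2.95 ± 0.39 (0.00224). The organoid rise of Notch2 (0.0441) ended without each library other than those of Sec-Cre ISCs (up to 0.301, without Sec-Cre organoid library 1). Of 28 unfolded protein response genes, 3 fell in organoids, 4 rose and 3 fell in ISCs, and the sensor Ern1 (3.17 ± 0.33, 0.000966) and the chaperone Hyou1 (2.30 ± 0.34, 0.00338) were the 2 with a positive interaction, against 5 with a negative one. The ISC shares were near the 14.4% and 12.7% of all genes. ISC counts became 2 rises and 7 falls without Sec-Cre ISC library 1 and 11 rises and 9 falls without library 2, and organoid falls 9 with either one left out.

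**Figure D5:**
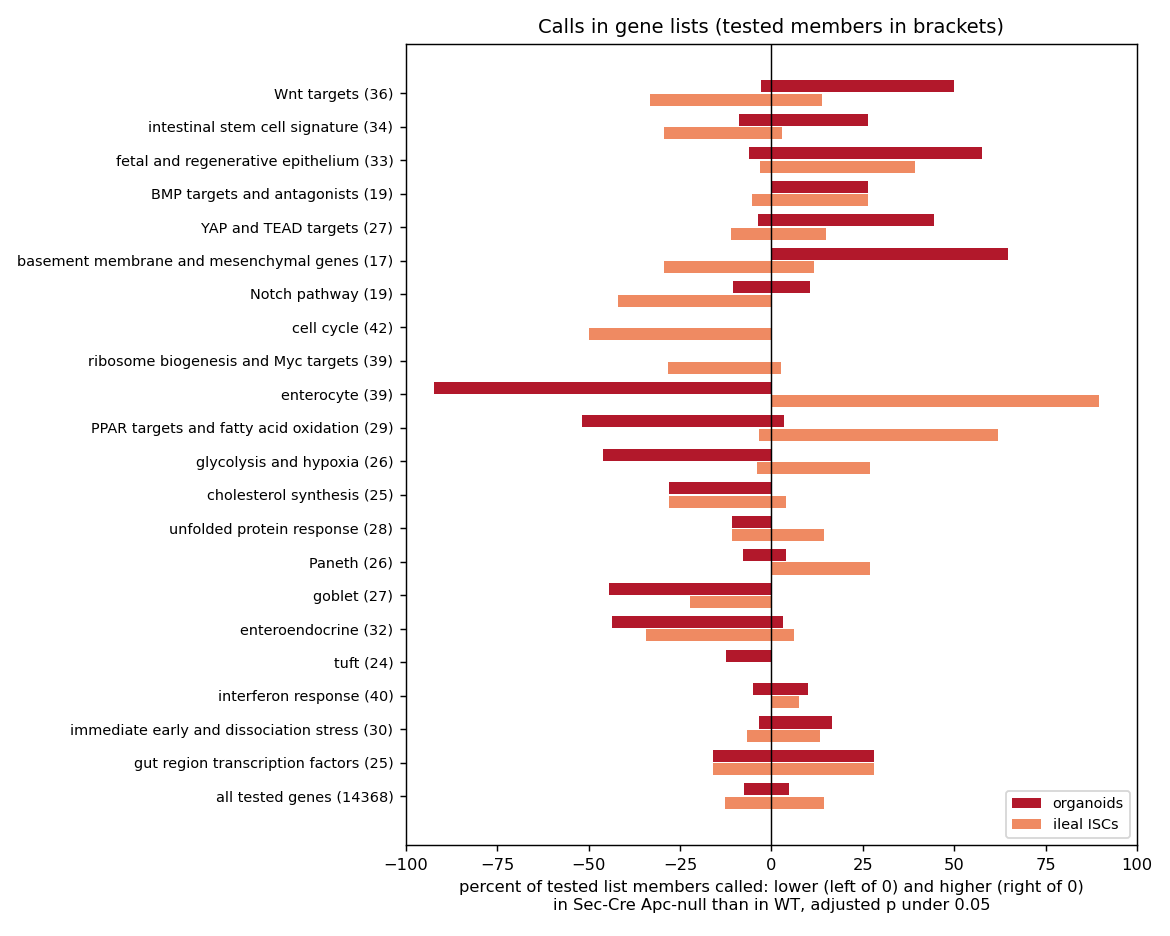
Percent of tested members called higher (right of 0) and lower (left of 0) in Sec-Cre Apc-null than in WT, for 21 gene lists and all genes tested, in organoids (upper bar) and ileal ISCs (lower bar). The bars of the enterocyte list point in opposite directions, those of the fetal list both point mostly right, and those of the goblet and enteroendocrine lists both point mostly left.

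Paneth cell and immune-related lists gave less. Of 26 Paneth genes, 1 rose and 2 fell in organoids, and 7 rose and none fell in ISCs, but the ISC counts rested on Sec-Cre ISC library 1: without it 2 rose and 8 fell, and without Sec-Cre ISC library 2 20 rose and none fell. Organoid falls became 11 with either one left out. With all libraries, 4.93% of all genes rose and 7.4% fell in organoids, and the Paneth calls in organoids were near these shares. In ISCs 14.4% of all genes rose. Lyz1, the Paneth lysozyme, had 638 and 482 CPM in Sec-Cre organoids, against 1958 and 2109 CPM in WT organoids, and 265900 and 4003 CPM in Sec-Cre ISCs, against 8814 and 5738 CPM in WT ISCs, and was called in neither setting. The value of 265900 CPM is scaled up by the TMM factor of that library, 0.375, and is not a share of its counts. Of 40 interferon response genes, 4 rose and 2 fell in organoids, 3 rose in ISCs, against 14.4% of all genes, and 3 had a positive and 5 a negative interaction. Organoid falls became 5 with either Sec-Cre ISC library left out, and positive interactions 6 without library 2. The ISC rises included Ifi35 (2.01 ± 0.31, edgeR adjusted p = 0.00385). The interaction of Ifi35 (-2.20 ± 0.43, 0.0101) was not called with the length trend removed (0.0561). Of 7 MHC class II genes, which epithelial stem cells can use to present antigen, 1 rose and 2 fell in organoids and 4 rose and none fell in ISCs, 2 of them in opposite directions. In the HoxB cluster, 1 of 8 tested genes fell in ISCs, against 12.7% of all genes, and none was called in organoids, while 5 fell in ISCs and 1 in organoids without Sec-Cre ISC library 2.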

How the data were processed

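RNA-seq reads were aligned with STAR to mm10, per the submitters' processing notes, which also name DESeq2 1.22.2, and the authors deposited a table of raw read counts per gene for each sample. The deposited counts of column 2 (no strand) were used here, since reads fell equally on both strands; reads of genes that overlap on opposite strands therefore cannot be told apart. The summary lines above the genes (reads unmapped, mapping to several places, outside genes or ambiguous) stayed out of the library sizes; unmapped reads were 2.58% to 57.0%. Gene symbols matched GENCODE vM21 (GRCm38) for 23666 of 24054 genes (98.4%).

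With R 4.3.3, edgeR 4.0.16 filtered genes (filterByExpr, minimum count 10), scaled libraries by TMM and fitted the 4 groups in 1 quasi-likelihood model (prior count 0.125). The tests were the organoid effect, the ISC effect and their difference, each adjusted by Benjamini-Hochberg over all genes tested, with a threshold of 0.05. CPM were taken over the TMM-scaled library. Against a group without counts, folds were bounded with a floor of 3 counts over the group; these bounds and the 95% exact counting intervals cover counting error only. The share of 31-base words of a gene's transcripts found in other genes marked uncertain counts when above 20%. Alternatives were other scalings, no filter, DESeq2 1.42.0, limma voom 3.58.1 with quality weights, all 13 libraries, separate fits per setting, a replicate block, a length correction (chosen after seeing the data) and leaving out each library. On simulated counts for the interaction over 14368 genes, 46 of 50 genes changed by a log2 of 6 and 18 of 50 changed by 2 were recovered. These counts gave each gene the same spread in all groups and placed changes in Sec-Cre organoids only. They do not show recovery at the wider spread of ISCs.

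The genes and lists were chosen with earlier results of these data known. Named genes were Apc, Lgr5, Atoh1 and Axin2, and the 8 of each shared and opposite class with the largest smaller effect. The 6 largest interactions in each direction were added. Of each list, the 2 called genes with the smallest adjusted p of the interaction were also named. Aqp4, Klk1, Msmo1, Rgs13, Tgfb2, Il17rb and Psmb10, also named by that rule, are not described. Sp5, Wwtr1, Wnt6, Wnt10a, Lef1, Ccnd1, Cd44, Rnf43, Ets2, Slc12a2, Olfm4, Il33, Id1, Id3, Chga, Chgb, Hnf4a, Epcam, Cdh5, Pdgfra, Acta2, Pdgfrb, Lyve1 and Lyz1 were chosen after their values were seen.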

Additional observations from a re-analysis of the deposited data

Results flagged for a closer look

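The effects of 1 contrast differed between organoids and ISCs, by the edgeR interaction test with Benjamini-Hochberg adjusted p under 0.05, for 1568 genes with a positive and 1970 with a negative difference. Values below are organoid minus ISC differences of log2 fold change. Of these 3538 genes, 2987 had effects of opposite sign and 551 of the same sign.

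Among Wnt genes the difference was 3.72 for Axin2, 5.62 for Notum, 7.12 for Prox1, 6.30 for Nkd1, 6.28 for Apcdd1, 5.74 for Tnfrsf19, 3.42 for Ccnd1, 2.35 for Cd44, 1.83 for Rnf43 and 2.04 for Ets2. For Wnt6 and Wnt10a, without a count in WT organoids, only the adjusted p is given, 0.00133 and 0.0453, and the call of Wnt10a ended under 8 of the alternatives.

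Among enterocyte and metabolic genes it was -18.21 for Apoa1, -16.97 for Creb3l3, -15.05 for Rbp2, -13.04 for Ggt1, -12.66 for Cyp2d26, -14.21 for Prap1, -13.86 for Cyp2b10, -13.80 for Alpi, -8.77 for Enpep, -9.24 for Guca2b, -8.04 for Krt20, -6.49 for Ppara, -4.17 for Ehhadh, -6.89 for Egln3, -4.24 for Bnip3, -2.08 for Sc5d, -3.55 for Hnf4g and -3.09 for Klf5. The adjusted p was 6.45e-05 for Apoa4, 0.0015 for Apoc3, 0.0029 for Fabp1, 0.000386 for Prss30 and 4.7e-05 for Chp2, which had at most 1 count in Sec-Cre organoids.

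Among genes with shared or secretory-lineage effects it was 3.06 for Anxa1, -2.07 for Aspa, 1.91 for Id3, 2.93 for S100a6, -2.74 for Cps1, -1.55 for Gpr128, -1.45 for Nr5a2, -4.32 for Chga, -2.68 for Chgb and -9.90 for Zg16, and the adjusted p for Sst was 0.000604.

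Among matrix, YAP and stress genes it was 9.04 for Pxdn, 7.64 for Vim, 7.28 for Thbs1, 6.86 for Chst11, 6.42 for Slc14a1, 5.22 for Lamb2, 3.69 for Ptk7, 3.42 for Hspg2, 3.69 for Cyr61, 4.91 for Tead2, 5.82 for Hspa1b, 6.90 for Hspa1a, 7.04 for Sox21 and 6.61 for St6gal1. Among genes of proliferation, biosynthesis, Notch, protein folding and interferon response it was 2.48 for Mki67, 2.17 for Tpx2, 2.65 for Utp20, 2.50 for Cad, 3.04 for Notch2, 2.95 for Jag1, 3.17 for Ern1, 2.30 for Hyou1 and -2.20 for Ifi35.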

How the results depend on the processing

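Counts of calls depended on the tool and on single libraries more than on scaling. DESeq2 called 1245 genes higher in organoids (709 with edgeR), 230 shared rises, 194 shared falls and 235 genes higher in organoids and lower in ISCs (92). limma voom called 1904 and 2353 genes higher and lower in organoids, 1200 lower in ISCs, 212 shared falls and 166 organoid-higher, ISC-lower genes. A fit of all 13 libraries called 1336 genes higher in organoids, 205 shared rises and 192 organoid-higher, ISC-lower genes. Separate fits called 1989 and 2132 genes in organoids, 853 and 483 in ISCs, 54 shared rises and 61 shared falls. The length correction left 1914 ISC rises and 1198 falls (2065 and 1831 without it).

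Leaving out 1 library gave 131 to 1788 rises and 337 to 2199 falls in organoids, 671 to 2860 and 618 to 3132 in ISCs, 519 to 3109 positive and 959 to 2906 negative interactions, 30 to 315 shared rises, 20 to 449 shared falls, and 16 to 476 and 172 to 818 opposite genes (organoid higher, organoid lower). The lone sample left was assumed to vary like the other groups. Of 245 tests of single genes, which include uncalled interactions, limma voom ended 24 calls, the replicate block 12, the length correction 10, all 13 libraries 9, no filter 1 and other scalings none. Separate fits hold no interaction, and of the called effects they cover they kept 130 and ended 24, all of them ISC effects. They ended those of Atoh1, Wnt6, Lef1, Wwtr1, Anxa1, Id3, Fcgbp, Lamb2, Ptk7, Vim, Slc14a1 and Atg9b. Those of Ecscr, Prox1, Sst, Cyr61, Sc5d, Ppara, Ehhadh, Cd44, Rnf43, Ets2, Chga and Hnf4a ended too.

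Replicate numbers did not pair the samples (correlation of deviations 0.0377 in organoids and 0.0729 in ISCs). A replicate block gave 2699 interaction calls, 162 shared and 392 opposite genes, of which 57 were organoid-higher and ISC-lower.

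No called effect reversed. Uncalled interactions that changed sign were those of Lgr5 (-0.26) and Adcy8 (-0.61) with the length correction, of Wwtr1 with voom (-0.36), and, over the fits that each left out 1 library, of Lgr5 (-0.45 to 0.72), Ecscr (-0.12 to 3.15), Clu (-1.52 to 0.64), Cebpa (-0.96 to 0.08), Adcy8 (-0.34 to 0.63), Lef1 (-4.82 to 1.75), Wwtr1 (-5.29 to 1.73) and Hnf4a (-0.70 to 0.23). The cause was not tested. The biological coefficient of variation was 0.451 in ISCs and 0.227 in organoids, against a common value of 0.351 in the fit of both. Standard errors of that fit thus rest on a spread smaller than that of ISCs alone and larger than that of organoids alone. With 2 libraries a group small differences were often not detectable.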
